A study of Mus musculus with 6 samples.

Results

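The mouse genome carries 4 genes of the doublecortin and doublecortin-like kinase family, Dclk1, Dclk2, Dclk3 and Dcx, which were followed here by name among 52636 genes counted in sorted medullary thymic epithelial cells (mTEC). All 4 were in the count table and all 4 passed the filter on low counts. RNA from 3 libraries of tuft-like cells was compared with RNA from 3 libraries of non-tuft-like cells, and the question put to the comparison was which members of the family separate the populations. Both populations came from the thymi of C57BL/6 mice at 6 weeks of age and were sorted as UEA+ MHCIIlo CD80- Sca1- CD63- cells. Tuft-like mTEC were CD117+ CD66a+, whereas the non-tuft-like mTEC were CD117- CD66a-, so the second gate is set by the absence of both markers and does not fix a single cell type. No treatment or engineered allele is named for either group. The sources used here do not say whether the triplicates came from separate animals, and p-values therefore measure the spread between these libraries, which may be technical.

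Most proteins of this family bind microtubules through paired doublecortin domains. Dcx, doublecortin itself, consists of these domains and is known from migrating young neurons, whereas Dclk1 and Dclk2 join them to a serine/threonine kinase domain related to the calcium/calmodulin-dependent kinases (CaMK). Dclk3 carries the kinase domain and is known mainly from brain. Tuft cells are rare chemosensory epithelial cells of gut, airway and thymus, and Dclk1 is widely used to recognise them.

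Dclk1 (ENSMUSG00000027797) lies on the forward strand of mm10 chromosome 3, chr3:55242364-55539068, and is annotated in GENCODE M21 with 15 transcripts, 11 of them coding. Dclk2 (ENSMUSG00000028078) lies further along the same chromosome on the reverse strand, at chr3:86786151-86920852. Dclk3 (ENSMUSG00000032500) maps to chr9:111439081-111489118 on the forward strand and Dcx (ENSMUSG00000031285) to chrX:143855842-143933311 on the reverse strand. The coding transcripts of Dclk1 fall into groups with different starts. Of these, 4 begin at or near the first start, including the full-length forms of 739 and 756 residues, and 7 begin at or after an internal start 219364 bases downstream, with at most 452 residues. Gene counts pool both groups, so the values below do not say which start was used.

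The stretches of 250 bases upstream of the RefSeq starts (GRCm38.p6, read along the gene) are shown for Dclk1, the member that was called, and for Dclk2, its closest relative by sequence. Capitals mark a CCAAT box (CCAAT) or GC boxes (GGGCGG), searched on both strands.
Dclk1 first start, chr3:55242114-55242363, forward strand: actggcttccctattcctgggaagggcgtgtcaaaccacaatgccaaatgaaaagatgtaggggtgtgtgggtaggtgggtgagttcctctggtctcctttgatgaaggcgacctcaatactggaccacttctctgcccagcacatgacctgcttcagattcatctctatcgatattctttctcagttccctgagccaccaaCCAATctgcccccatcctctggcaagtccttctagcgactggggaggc
Dclk1 internal start, chr3:55461478-55461727, forward strand: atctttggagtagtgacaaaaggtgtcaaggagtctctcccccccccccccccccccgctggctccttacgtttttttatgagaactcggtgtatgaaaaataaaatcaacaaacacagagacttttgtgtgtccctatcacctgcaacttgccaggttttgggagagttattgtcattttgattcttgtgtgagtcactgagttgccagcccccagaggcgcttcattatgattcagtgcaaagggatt
Dclk2, chr3:86920885-86921134, reverse strand: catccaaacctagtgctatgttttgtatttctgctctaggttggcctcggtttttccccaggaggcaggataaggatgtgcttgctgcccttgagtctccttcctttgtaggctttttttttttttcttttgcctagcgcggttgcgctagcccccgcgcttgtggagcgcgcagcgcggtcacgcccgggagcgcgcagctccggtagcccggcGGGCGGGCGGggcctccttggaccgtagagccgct

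The upstream sequences differ in composition. Both Dclk1 windows hold 4 CpG dinucleotides, against a median of 6 over 32851 promoter windows of the same length, and their GC contents are 52.4% and 46.8%. The Dclk2 window holds 21 CpG, more than 83.65% of all windows, at a GC content of 60.0%. It carries 2 overlapping GC boxes, the first beginning 35 bases before the start, and 32.74% of all windows hold at least 1 such match. The first Dclk1 window has a CCAAT box beginning 48 bases before the start, a match held by 33.85% of windows. The octamer ATGCAAAT, the sequence that POU factors of the family of the tuft cell regulator Pou2f3 are known to bind, occurs in none of the 5 windows listed for Dclk1, Dclk2 and Dcx and in 1.6% of all windows. TATAAA is absent from the 3 windows printed and is held by 12.37% of all windows. It occurs in both Dcx windows, which overlap, and is the same site in each. No window is listed for Dclk3.

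Because the members are related, their transcripts were compared before their counts. The longest coding sequences were aligned from end to end, and identity was taken over aligned bases with gaps left out. Dclk1 and Dclk2 are 71.48% identical over 2153 bases and Dclk1 and Dcx 70.23% over 1065. Dclk2 and Dcx are 70.8% identical over 1041 bases, whereas Dclk3 reaches 62.4% with Dclk1 over 1920. No run of 50 bases is shared between the transcripts of any pair of members. The longest identical coding runs are given because they show how far a read could match more than 1 member.
Dclk1 and Dclk2: CACTGCAGCTTCTACCGCAC
Dclk1 and Dcx: GGGGTGAAGCCACGGAAGGCTGT
Dclk2 and Dcx: GAGAAGAAGGCCAAGAAGG

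These runs span 20, 23 and 19 bases. On the annotation, 114 bases of the Dclk1 exons, or 0.745% of them, also belong to genes on the opposite strand (Gm21954 and Gm42609), and the strand setting of the counting is not given in the sources used here. The exons of the other 3 members overlap no other gene.

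The libraries held 20097617 to 48369825 counts on genes and differed in technical measures that do not follow the groups. The share of reads assigned to no annotated feature ran from 34.4% to 52.5% in non-tuft-like and from 19.7% to 61.6% in tuft-like libraries, with tuft-like library 3 lowest and tuft-like library 1 highest. Olfactory receptor genes, taken as a reference for stray reads over 1406 genes, averaged 2.59 reads per exon kilobase in tuft-like library 3 and 5.85 to 15.5 in the other 5 libraries. Of 15 tuft cell markers, all 15 were higher in the tuft-like libraries, with summed levels of 14771 to 25531 CPM (counts relative to the library total on genes, scaled by TMM) against 1000 to 1352. The epithelial gene Epcam had a level of 644 CPM ± 367 in the non-tuft-like libraries and 691 CPM ± 404 in the tuft-like ones (SD, n = 3 each), while Foxn1, a transcription factor of thymic epithelium, and Krt14, a keratin, were lower in the latter, with log2 fold changes of -3.48 and -3.49. These were the 2 called among 7 epithelial markers. The other keratins differed among themselves, with log2 fold changes of -3.02 (FDR 0.0985, edgeR) for Krt5, 1.04 (FDR 0.417) for Krt18 and 0.67 (FDR 0.968) for Krt8, and the list summed to 5039 to 5804 CPM in the non-tuft-like libraries against 4710 to 10946 CPM. Among the tuft cell markers Pou2f3 lost its call without non-tuft-like library 2 (FDR 0.0653, edgeR). Over all genes, edgeR's quasi-likelihood test at a false discovery rate (FDR) under 0.05 called 687 of 32496 tested genes, or 2.11%, of which 378 were higher (1.16%) and 309 lower (0.951%) in tuft-like mTEC. This balance turned without tuft-like library 3, to 310 higher and 612 lower. The 3 libraries of one group all lay above or below those of the other, without overlap, for 16% of tested genes.

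Dclk1 was the member of the family that passed the test, and it did so with a large change. Its counts were 787, 1117 and 1160 in the non-tuft-like libraries and 30728, 56227 and 66625 in the tuft-like libraries. On the CPM scale these are 24.8, 23.8 and 36.9 against 1270, 1644 and 1840. Every tuft-like library lay far above every non-tuft-like library. The log2 fold change was 5.80 (SE 0.41, 95% interval 4.88 to 6.71), with an FDR of 0.000310 in edgeR's quasi-likelihood test. In bulk RNA such as this, fewer cells that express a gene and less RNA per cell cannot be told apart.

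**Figure D1:**
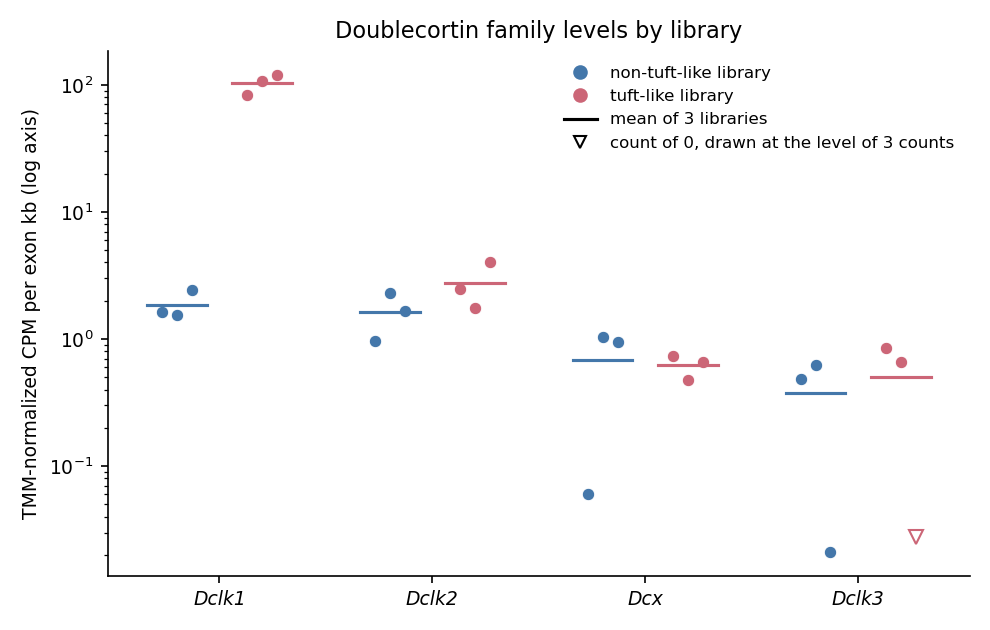
Level of each member of the doublecortin family in each of the 6 libraries, as TMM-normalized CPM per exon kilobase on a log axis, with points for libraries, lines for group means and an open triangle for a count of 0 drawn at the level of 3 counts. Dclk1 stands at 83.0 to 120.3 in the 3 tuft-like libraries and at 1.55 to 2.41 in the non-tuft-like libraries, while the groups overlap for Dclk2, Dcx and Dclk3.

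Among the 378 genes called higher, Dclk1 had the 13th largest log2 fold change and the 11th highest mean tuft-like CPM. Ranked by CPM per exon kilobase among 21896 protein-coding genes, it stood at positions 340, 340 and 486 in the tuft-like libraries. In the non-tuft-like libraries its positions were 12275, 12594 and 11281. Dclk1 was thus near the top of the coding genes in one population and in the middle of the list in the other. Against the stray reads, its reads per exon kilobase were 23.9, 35.7 and 98.4 times the 99th percentile that olfactory receptor genes reached in the same tuft-like library. The same ratio was 0.752, 0.693 and 0.720 in the non-tuft-like libraries, below the top of the olfactory range in all 3. The mean Dclk1 level there was nonetheless 5.47 to 8.79 times the olfactory mean. The part of stray reads in the low Dclk1 counts of the non-tuft-like libraries was not tested.

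The Dclk1 result changed little with the choice of method or library. It was called under all 19 alternative settings, with log2 fold changes of 5.64 to 6.02 and FDR of at most 0.00182. Without tuft-like library 3, the library with the fewest reads outside features, the log2 fold change was 5.64, and without tuft-like library 1, the library with the most, it was 5.94.

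Dclk2, the other microtubule-binding kinase of the family, had 324, 1142 and 547 counts in the non-tuft-like and 634, 631 and 1555 in the tuft-like libraries. These correspond to 10.2, 24.3 and 17.4 CPM against 26.2, 18.4 and 42.9 CPM. The groups overlapped, since tuft-like library 2 lay below non-tuft-like library 2, and the highest value came from tuft-like library 3. The log2 fold change of 0.75 (SE 0.48, 95% interval -0.31 to 1.81) did not pass the test (FDR 0.936, edgeR). The upper end of that interval lies below the lower end of the Dclk1 interval. Leaving out tuft-like library 3 brought the estimate to 0.33, and the largest estimate, 1.08, came without non-tuft-like library 2. None of the 19 settings called Dclk2.

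Dcx, the neuronal doublecortin without a kinase domain, was counted 24, 618 and 376 times in non-tuft-like and 226, 206 and 302 times in tuft-like libraries. On the CPM scale the values were 0.757, 13.2 and 12.0 against 9.34, 6.02 and 8.34. All 3 tuft-like values fell inside the range of the non-tuft-like values, where library 1 was far below the others. The log2 fold change was -0.13 (SE 0.93, 95% interval -2.20 to 1.95; FDR 1.0, edgeR), an interval too wide to exclude a change of severalfold either way. Its sign turned in 5 of 19 settings.

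Dclk3 was the least counted member, with 46, 88 and 2 counts in non-tuft-like and 62, 68 and 0 counts in tuft-like libraries. The CPM values were 1.45, 1.87 and 0.0636 against 2.56, 1.99 and 0, where the count of 0 in tuft-like library 3 allows up to 0.0828 CPM, taken as 3 counts and covering counting error only. In each group 2 libraries held 46 or more reads and library 3 at most 2. The log2 fold change of 0.42 had an SE of 1.97 and a 95% interval from -3.96 to 4.80, and it was not called (FDR 1.0, edgeR). The sign turned in 6 of 19 settings. Across the family 1 of 4 members was called, with the direction higher, and 1 of 4 had groups that did not overlap, beside 1.16% of all tested genes called higher and 16% without overlap.

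**Figure D2:**
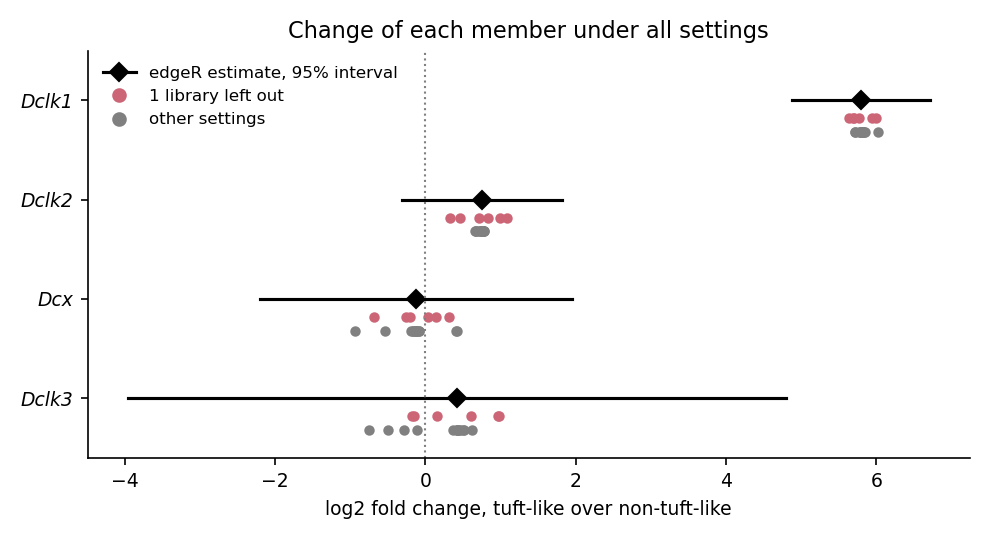
Log2 fold change, tuft-like over non-tuft-like mTEC, for each member, with the edgeR estimate as a diamond, its 95% interval as a line, and below it the estimates with 1 library left out and under the other settings as points. Dclk1 stays between 5.64 and 6.02 and Dclk2 between 0.33 and 1.08, while Dcx and Dclk3 fall on both sides of 0.

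Per exon kilobase, the order of the members was the same by group means in both populations, but the distances were not. The divisor is the merged length of all annotated exons, 15296 bases for Dclk1, whose longest transcript has 7962. Levels of different genes can therefore be compared only roughly. In non-tuft-like mTEC the means were 1.86 ± 0.475 for Dclk1, 1.64 ± 0.668 for Dclk2, 0.682 ± 0.541 for Dcx and 0.376 ± 0.315 for Dclk3 (CPM per exon kilobase, SD, n = 3). Each of these neighbours in the order overlapped with the next over the 3 libraries. In tuft-like mTEC the means were 103.6 ± 18.9, 2.77 ± 1.19, 0.625 ± 0.135 and 0.505 ± 0.447 in the same order and unit. There Dclk1 lay clear of Dclk2 and Dclk2 clear of Dcx in every library, and only Dcx and Dclk3 overlapped. Relative to the olfactory mean of the same library, Dclk2 stood at 3.87, 4.69 and 56.9 in the tuft-like libraries. Dcx stood at 1.15, 1.28 and 9.22 and Dclk3 at 1.33, 1.77 and 0. In non-tuft-like libraries the ratios were 5.25, 10.9 and 3.74 for Dclk2, 0.324, 4.93 and 2.14 for Dcx and 2.62, 2.95 and 0.048 for Dclk3. The part of stray reads in these levels was not tested.

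The ratio of Dclk1 to Dclk2 within a library does not depend on the scaling between libraries. On the log2 scale, per exon kilobase, it was 0.74, -0.57 and 0.55 in the non-tuft-like libraries and 5.06, 5.94 and 4.89 in the tuft-like libraries. Dclk1 and Dclk2 were therefore within a factor of 1.67 of each other in every non-tuft-like library, and Dclk1 was 29.6 to 61.4 times the level of Dclk2 in the tuft-like libraries. The difference of the means was 5.05, and the exact two-sided permutation p of 0.1 is the smallest that 3 against 3 libraries can give. The log2 ratio of Dcx to Dclk2 differed by -0.10 between the groups (exact permutation p = 1, n = 3 each).

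Dclk1 made up 51.8%, 28.2% and 48.0% of the summed family level in the non-tuft-like libraries and 95.3%, 97.4% and 96.2% in the tuft-like libraries. The summed level itself rose from 4.56 ± 1.26 to 107.5 ± 19.1 CPM per exon kilobase (SD, n = 3 each), again without overlap and with the smallest permutation p possible, 0.1 in an exact test. The other 3 members together stood at 2.698 ± 1.23 and 3.90 ± 0.934 CPM per exon kilobase, with overlapping libraries and an exact permutation p of 0.2 (n = 3 each).

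**Figure D3:**
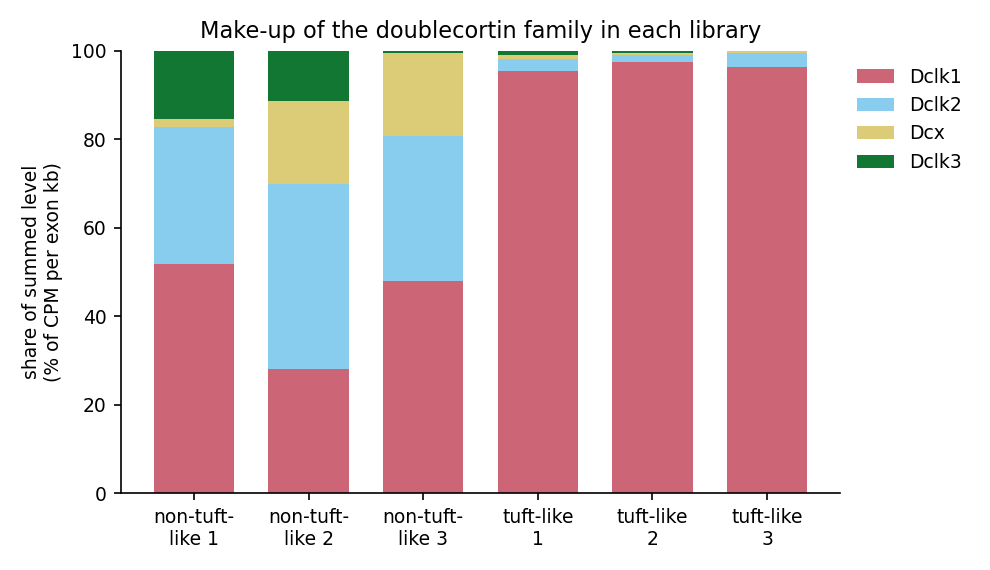
Share of each member in the summed level of the doublecortin family (percent of TMM-normalized CPM per exon kilobase) in each of the 6 libraries, as stacked bars. Dclk1 takes 95.3% to 97.4% in the tuft-like libraries, whereas in the non-tuft-like libraries it takes 28.2% to 51.8% and Dclk2 30.9% to 41.7%.

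Genes that lie within or beside the members were examined for the same comparison. Inside the body of Dclk1 6 other genes are annotated, of which 5 were tested and 1 was called, beside 2.11% of all tested genes. The called gene is Gm19817 (ENSMUSG00000105302), an unconfirmed single-exon gene at chr3:55330841-55332972, on the strand of Dclk1 and in the stretch between its starts. It had 39, 42 and 0 counts in the non-tuft-like and 698, 1309 and 1331 in the tuft-like libraries, a log2 fold change of 5.60 (SE 1.11; FDR 0.0287, edgeR). The call was lost without non-tuft-like library 2 or tuft-like library 2, where the FDR reached at most 0.0710. Reads from an intronic gene and from unspliced Dclk1 RNA cannot be told apart in gene counts. Gm42609, on the opposite strand, had 216, 101 and 140 against 705, 1393 and 611 counts, with no overlap on the CPM scale, and missed the threshold (log2 fold change 2.69, FDR 0.0518, edgeR). Gm21954, the coding gene on the opposite strand that overlaps Dclk1, had a log2 fold change of 1.47 (SE 2.09; FDR 1.0, edgeR). Gm42609 and Gm21954 share exon bases with Dclk1, and the strand setting of the counting is not given. Their reads and those of Dclk1 RNA, spliced or unspliced, may therefore not be told apart. All 5 tested genes inside the body had a log2 fold change above 0, beside 16568 of all 32496 tested genes.

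The nearest coding genes on either side of Dclk1 were not called. Next upstream, Sohlh2 is a germ cell transcription factor, with a log2 fold change of 0.66 (SE 1.84; FDR 1.0, edgeR). Next downstream, 86127 bases from the gene end, Nbea encodes neurobeachin, a scaffold of membrane traffic, with a log2 fold change of -0.59 (SE 0.45; FDR 1.0, edgeR). Within 500 kb, 1 of 11 tested coding genes was called, beside 2.11% of all tested genes. That gene is Sertm1, a small membrane protein gene 326477 bases upstream, which had no count in the non-tuft-like libraries and 69, 119 and 306 in the tuft-like libraries. Its mean tuft-like level was at least 58.2-fold higher than a floor of 3 counts per library (FDR 0.0429, edgeR). The Sertm1 call was lost when any 1 of the 6 libraries was left out, with an FDR of up to 0.149.

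The loci of Dclk1 and Dclk2 share an arrangement, since each kinase gene is followed by a large BEACH domain gene with a Mab21-like gene inside it. In the Dclk2 locus these are Lrba, which encodes a protein of vesicle traffic, and Mab21l2. Lrba lies on the opposite strand to Dclk2, and the ends of both genes are 3459 bases apart. Lrba had a log2 fold change of -0.06 (SE 0.29) and Mab21l2 one of 0.87 (SE 2.01), against -0.59 for Nbea and -0.27 (SE 1.73) for Mab21l1 in the Dclk1 locus. None of these 4 genes was called. Upstream of Dclk2, Cd1d1, the lipid-presenting molecule recognised by NKT cells, was at 79.5 ± 23.5 CPM in the non-tuft-like libraries and 75.6 ± 43.9 CPM in tuft-like libraries (SD, n = 3 each). Of 7 coding genes within 500 kb of Dclk2, 0 were called by edgeR or by DESeq2, with 0 at an unadjusted p under 0.05. Of 9 tested around Dclk3, 0 were called by edgeR and 1, Stac, by DESeq2. DESeq2 gave no adjusted p-value for 1 coding gene around Dclk2 and 1 around Dclk3. Beside Dclk3, Stac, an adaptor of voltage-gated calcium channels, had a log2 fold change of -2.33 (SE 0.86; FDR 0.338, edgeR), with an unadjusted p of 0.0212, and Trank1 on the other side one of -0.57 (SE 1.15). Near Dcx, Capn6, a calpain-related gene, and A730046J19Rik had log2 fold changes of -0.58 (SE 1.40) and -0.63 (SE 2.41) and were not called. In the same window lie Pak3, a p21-activated kinase, with a log2 fold change of -1.80 (SE 0.73; FDR 0.437, edgeR), and Chrdl1, a secreted BMP antagonist, with one of 4.19 (SE 0.97; FDR 0.0609, edgeR). Neither passed the test. Both were without overlap between the groups, as were 16% of all tested genes, and both were chosen once their values had been seen. Alg13, an enzyme of N-glycosylation 384493 bases upstream of Dcx, was called, with 5.90, 8.98 and 13.9 CPM in the non-tuft-like libraries and 48.6, 57.9 and 47.4 CPM in tuft-like libraries (log2 fold change 2.42, SE 0.41; FDR 0.0120, edgeR). Its call was lost without non-tuft-like library 2 or tuft-like library 2 (FDR of up to 0.0637). Together 2 of 33 tested coding genes within 500 kb of the members were higher and none lower, beside 1.16% higher and 0.951% lower of all tested genes.

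**Figure D4:**
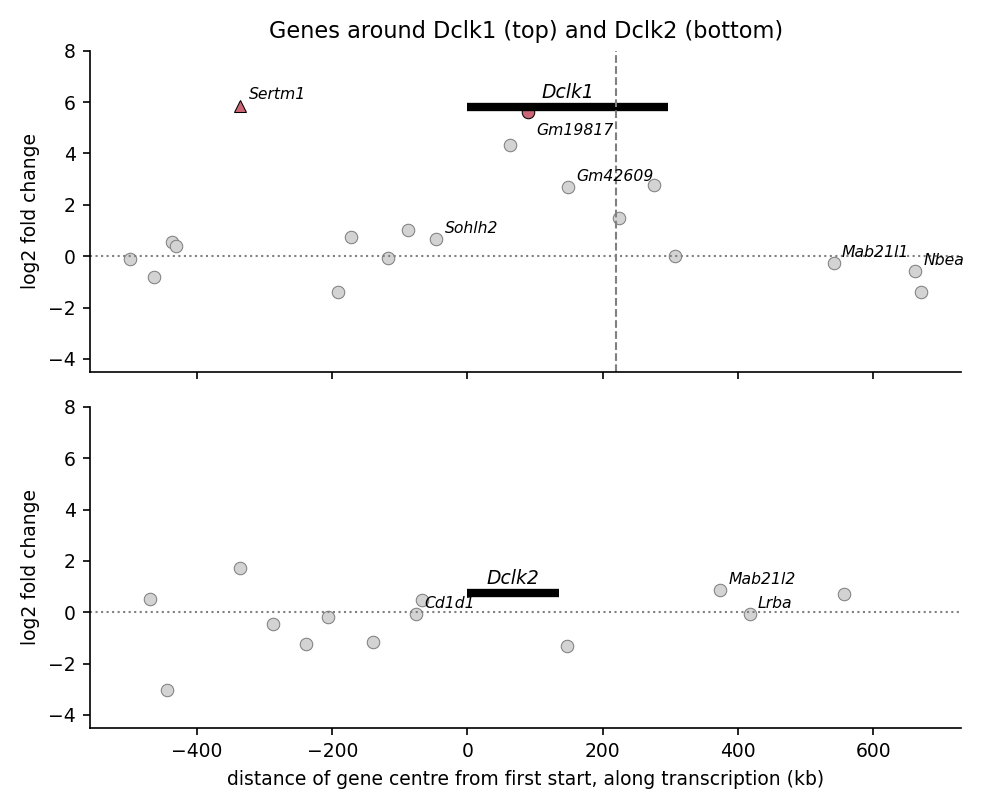
Log2 fold change, tuft-like over non-tuft-like mTEC, for tested genes within 500 kb of Dclk1 (top) and Dclk2 (bottom), against the distance of the gene centre from the first start in kb along transcription, with called genes in red, the member itself as a black bar, the internal Dclk1 start as a dashed line and Sertm1 as a triangle at its lower bound. Genes inside the Dclk1 body lie above 0, whereas the coding neighbours Sohlh2, Nbea and Mab21l1 and the genes around Dclk2 were not called.

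The other genes with a doublecortin domain were not called. Of 7 listed, 6 were in the table and tested and 0 were called by edgeR, with 0 at an unadjusted p under 0.05. Of these, 1 had a positive log2 fold change, and their median was -0.92 against 0.02 over all tested genes. Rp1, a microtubule protein of photoreceptors, had levels of 16.1 ± 2.07 CPM in the non-tuft-like libraries and 4.28 ± 4.81 CPM in tuft-like libraries (SD, n = 3 each), with a log2 fold change of -1.91 (SE 0.94; FDR 0.663, edgeR). Dcdc2a, a ciliary protein, stood at 22.3 ± 4.42 and 8.53 ± 8.34 CPM, with a log2 fold change of -1.38 (SE 1.14; FDR 1.0, edgeR). Rp1l1, a relative of Rp1, stood at 8.45 ± 3.05 and 13.2 ± 6.34 CPM, with a log2 fold change of 0.64 (SE 0.63; FDR 1.0, edgeR). Rp1 and Dcdc2a were the 2 genes of the list whose libraries did not overlap between the groups, against 16% of all tested genes. DESeq2, the other count model run, also called 0 of the 6.

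Among the CaMK genes and their inhibitors, the kinase relatives of the Dclk members, 2 of 14 tested genes were called, both higher, beside 2.11% of all tested genes, and the list median was 0.01. The groups did not overlap for 7 of the 14 genes, beside 16% of all tested genes. The summed level of the list was 311 to 340 CPM in the non-tuft-like libraries and 627 to 857 CPM in tuft-like libraries. Camk2d, the delta subunit of CaMKII, had 84.0, 105 and 97.5 CPM in the non-tuft-like and 306, 420 and 489 CPM in the tuft-like libraries. The lowest tuft-like library was well above the highest non-tuft-like library (log2 fold change 2.09, SE 0.30; FDR 0.00476, edgeR). Camk2b, the beta subunit, had 57.8, 33.1 and 32.9 CPM against 94.9, 173 and 142 CPM. Its groups did not overlap either (log2 fold change 1.73, SE 0.35; FDR 0.0300, edgeR), but the call was lost without non-tuft-like library 2 or 3 or tuft-like library 2 or 3, with an FDR of up to 0.177. Camk1d, a CaMKI kinase, had a log2 fold change of 0.99 (SE 0.27) and an FDR of 0.124 in edgeR.

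Of the listed regulators and binding partners of the family, 1 of 14 tested genes was called, beside 2.11% of all tested genes, and the median log2 fold change was -0.18. The groups did not overlap for 2 of the 14, a share near the 16% of all tested genes. The called gene is L1cam, whose protein the paper names as a marker of tuft-like mTEC. L1cam encodes a neural cell adhesion molecule of the family whose member neurofascin binds doublecortin. Its levels were 19.2, 29.8 and 53.2 CPM in the non-tuft-like libraries and 280, 427 and 275 CPM in tuft-like libraries (log2 fold change 3.26, SE 0.42; FDR 0.00267, edgeR). Nfasc, encoding neurofascin itself, stood at 216 ± 54.8 and 199.9 ± 61.8 CPM (SD, n = 3 each; log2 fold change -0.11). Ap2m1, the clathrin adaptor subunit, stood at 374 ± 59.0 and 418 ± 136 CPM (log2 fold change 0.16). Cdk5, a kinase that phosphorylates doublecortin, had a log2 fold change of 0.52 (SE 0.31; FDR 0.864, edgeR).

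Of 34 microtubule-associated genes, the machinery on which the family acts, 1 was called, lower, or 2.94% beside 2.11% of all tested genes, and the median log2 fold change was -0.32. Stmn1, the tubulin-sequestering protein stathmin, had 70.9, 94.9 and 70.0 CPM against 25.04, 22.5 and 33.1 CPM (log2 fold change -1.55, SE 0.30; FDR 0.0248, edgeR). The Stmn1 call was lost without library 1 or 2 of either group, with an FDR of up to 0.189. The highest counted genes of the list, Dync1h1, the heavy chain of cytoplasmic dynein, and Kif5b, a kinesin motor, had log2 fold changes of 0.04 (SE 0.27) and 0.36 (SE 0.36). For 10 of the 34 genes the groups did not overlap, beside 16% of all tested genes.

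Among 17 tubulin genes 3 were called, 1 higher and 2 lower, with a median of -0.23, and the groups did not overlap for 5. Over all tested genes 2.11% were called and 16% did not overlap. Tubg2, a gamma-tubulin, had 19.9, 13.6 and 17.4 CPM in the non-tuft-like libraries and 99.6, 140.3 and 172 CPM in tuft-like libraries (log2 fold change 3.02, SE 0.33; FDR 0.00106, edgeR). Tuba8, an alpha-tubulin, had 86.5, 80.6 and 65.1 against 14.2, 17.8 and 20.3 CPM (log2 fold change -2.15, SE 0.30; FDR 0.00449, edgeR). Of its exon bases 16.3% also belong to Gm15856 on the opposite strand. Tubb6, a beta-tubulin, had 83.2, 98.0 and 62.6 against 19.3, 7.31 and 19.4 CPM (log2 fold change -2.40, SE 0.42; FDR 0.0145, edgeR), and its call was lost without non-tuft-like library 2 (FDR 0.0578). The highest counted tubulin, Tuba1a, had 753 ± 142 and 1402 ± 297 CPM (SD, n = 3 each; log2 fold change 0.90, FDR 0.380, edgeR), and 26.2% of its exon bases are shared with Gm49450 on the same strand. Tubb4b had a log2 fold change of -0.30 (SE 0.30). Tubulin genes are near-identical in places, so counts of single members are uncertain.

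**Figure D5:**
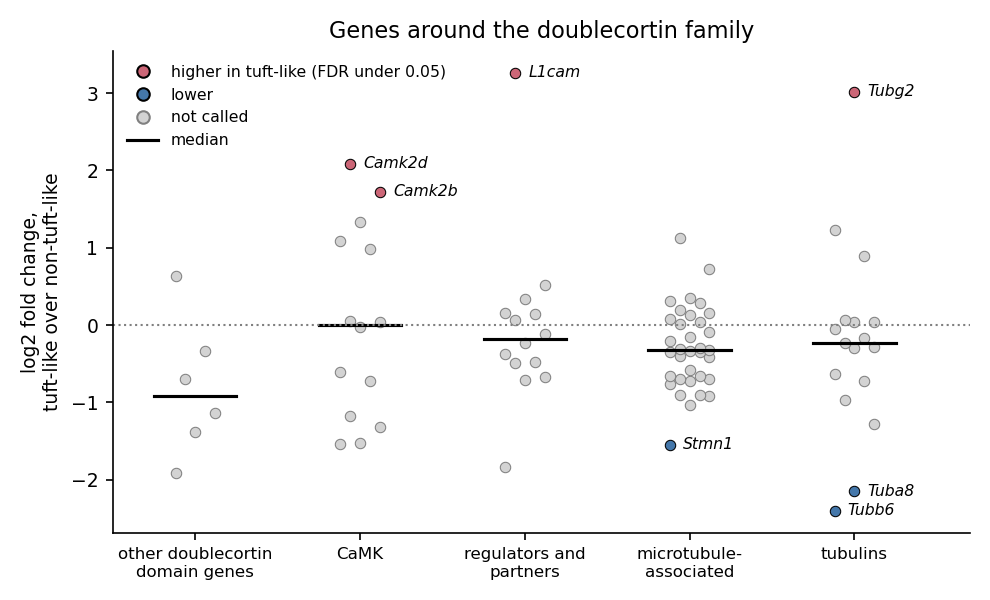
Log2 fold change, tuft-like over non-tuft-like mTEC, for each tested gene of 5 lists around the doublecortin family, with genes higher in red, lower in blue and not called in grey, and a line at each list median. The called genes are Camk2d, Camk2b, L1cam, Stmn1, Tubg2, Tuba8 and Tubb6.

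Dcx and several of the partner genes are known from neurons, and levels of neuronal, glial and neuroendocrine markers are therefore given beside them. Of 16 neuron markers 14 were tested and 1 was called, beside 2.11% of all tested genes. It was Nefl, the light neurofilament chain, at 7.26 ± 6.44 CPM in the non-tuft-like libraries and 87.3 ± 21.2 CPM in tuft-like libraries (SD, n = 3 each; log2 fold change 3.59, FDR 0.0151, edgeR). Of the 14, 5 had a positive log2 fold change and the median was -0.69. The synaptic genes Snap25 and Syt1 had log2 fold changes of -0.78 (FDR 0.335, edgeR) and -0.77 (FDR 0.476), both without overlap between the groups. The groups did not overlap for 5 of the 14 genes, beside 16% of all tested genes. The summed level of the list was 622 to 985 CPM in the non-tuft-like libraries and 546 to 632 CPM in tuft-like libraries. Th and Phox2a of sympathetic neurons were not tested for low counts. Th stood at 0 to 0.159 CPM in the non-tuft-like libraries and 0 to 7.44 CPM in tuft-like libraries. Phox2a was at 0 in all non-tuft-like libraries and at 0 to 0.124 CPM in tuft-like libraries. Of 6 glial markers 5 were tested and 0 called by edgeR or DESeq2, with 0 at an unadjusted p under 0.05, and their sum was 9.09 to 18.9 CPM against 8.70 to 11.8 CPM. For 3 of these 5 genes DESeq2 gave no adjusted p-value. Of 8 neuroendocrine markers 0 were called by edgeR and 3 by DESeq2, all lower in tuft-like mTEC, with 3 at an unadjusted p under 0.05, and their sum was 2479 to 4489 CPM against 1193 to 2171 CPM. Markers of mast cells and progenitors, which share CD117 with the tuft-like gate, gave 0 calls by edgeR or DESeq2 among 6 tested genes, with 1 at an unadjusted p under 0.05 and sums of 4.04 to 14.7 against 8.48 to 16.3 CPM. For 4 of these 6 genes DESeq2 gave no adjusted p-value. Of 8 leukocyte markers 1 was called, beside 2.11% of all tested genes. It was Cd68, lower in tuft-like mTEC (log2 fold change -3.30, FDR 0.00280, edgeR). The list sums were 214 to 353 against 156 to 209 CPM, and 2 of the 8 had a positive log2 fold change. The highest counted, Lyz2, stood at 223 ± 82.2 and 145 ± 29.6 CPM (SD, n = 3 each). Ptprc went the other way, at 8.7 ± 4.6 and 23.2 ± 13.3 CPM (log2 fold change 1.42, FDR 0.610, edgeR). Of 7 fibroblast and endothelial markers 0 were called by edgeR or DESeq2, with 1 at an unadjusted p under 0.05 and sums of 43.7 to 71.8 against 19.0 to 292 CPM. All 7 had a positive log2 fold change, with a median of 1.17 against 0.02 over all tested genes. The groups overlapped for all 7. Tuft-like values ran from 3.07 to 106 CPM for Pecam1 and from 7.15 to 14.8 CPM for Pdgfra. The part of these cell types in the results of the members was not tested.

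The genes whose profile over the 6 libraries lay closest to that of Dclk1 were sought among 12343 tested genes whose mean reached 10 CPM in either group, by the root mean square distance between centred log2 CPM values. Sh2d6, an SH2 domain gene of tuft cells, was the nearest at a distance of 0.269. It had 15.8, 12.7 and 14.5 CPM in the non-tuft-like libraries and 649, 927 and 1410 CPM in tuft-like libraries. Srpx2, a secreted sushi repeat protein, followed at 0.440, with 1.17, 6.24 and 4.35 against 183, 298 and 321 CPM. Next came Bmx, a Tec family tyrosine kinase, at 0.453, and Alox5, the lipoxygenase that starts leukotriene synthesis, at 0.505. Their group means were 38.8 and 1379 CPM for Bmx and 43.5 and 1317 CPM for Alox5. Car7, a cytosolic carbonic anhydrase, was the next at 0.549, with 7.95 to 18.03 CPM against 296 to 599 CPM. In all 5 genes, as in Dclk1, tuft-like library 1 was the lowest and library 3 the highest of the tuft-like libraries. Sh2d6 and Alox5 were also among the 15 tuft cell markers. The closeness is a description over 6 libraries and was not tested.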

How the data were processed

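The authors used Trimmomatic 0.36 for trimming, STAR 2.7.3a for alignment to mm10 and HTSeq for gene assignment, per the labels and the methods of the study. The libraries were made with the SMARTer Ultra Low Input kit. The deposited table holds whole read counts per gene, and rows naming no gene, 27.1% to 66.6% of a library's reads, were left out. Symbols, positions and exon lengths came from GENCODE M21, and the authors' own annotation release is not given in the sources used here. Genes were kept by filterByExpr (minimum count 10, total 15), scaled by TMM and tested with edgeR 4.0.16 (R 4.3.3) using its quasi-likelihood F-test without covariates and Benjamini-Hochberg adjustment over 32496 genes. Standard errors were the absolute log2 fold change over the square root of F, and 95% intervals used the test's degrees of freedom. The script was tested on simulated data. Depth puts the 3-count floor at 0.0639 to 0.124 CPM. Single values were compared by exact two-sided permutation tests.

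The members and lists were chosen with earlier results of these data known. Named genes were the members, in each list the called genes (at most 8) and the 2 highest counted, markers, the nearest coding neighbours and the 5 nearest profiles to Dclk1. Genes inside the Dclk1 body, called neighbours, the Mab21-like genes, Camk1d, Cdk5, Rp1, Pak3 and Chrdl1 were chosen once their values had been seen. Values of some genes in the lists are not reported here. For DESeq2, adjusted p-values given as NA were not counted. Alternatives used other scalings, tests (DESeq2 1.42.0, limma 3.58.1), filters, background subtraction and left-out libraries.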

Additional observations from a re-analysis of the deposited data

How the results depend on the processing

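Under all 19 alternatives Dclk1 was called and Dclk2 was not. The count of 687 called genes became 1045 with library size scaling alone, 1904 with DESeq2, 1236 with the likelihood ratio test, 1167 with the exact test, 1127 without a filter, 1061 with median and 1057 with mean background counts subtracted, the last chosen after seeing the data, and 319 at an FDR of 0.01. Leaving out 1 library gave 376 to 922 calls. The lower calls outnumbered the higher ones with library size scaling (526 against 519), without a filter (577 against 550), at 1 CPM in 3 libraries (460 against 450), with the median background subtracted (533 against 528), with the replicate block (376 against 361) and without tuft-like library 3 (612 against 310). DESeq2 called 2 microtubule-associated and 5 tubulin genes, and an FDR of 0.01 left 1 CaMK gene and 0 microtubule-associated genes. Leaving out 1 library gave 1 to 2 CaMK calls and 0 to 1 microtubule-associated calls. The cause was not tested.

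The log2 fold change of Dclk3 turned negative under limma voom (-0.75) and with the median (-0.10) or mean (-0.29) background subtracted, and ran from -0.18 to 0.98 with 1 library left out, negative at -0.14 without non-tuft-like library 3 and at -0.18 without tuft-like library 1. That of Dcx became 0.43 under limma voom and ran from -0.68 to 0.32 with 1 library left out, with 0.32, 0.14 and 0.03 without non-tuft-like library 2 or 3 or tuft-like library 2. Same-numbered libraries did not deviate together (correlations of -0.0708, -0.0265 and -0.255), the labels state no pairing, and none was assumed. A replicate block gave 737 calls, 578 of them shared with the 687, left Dclk1 at 5.81 and gave -0.50 for Dclk3 and 0.41 for Dcx, neither called. The spread between libraries of 1 group limits what can be said of Dclk3 and Dcx.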
